A study of Mus musculus with 10 samples.

Results

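The genes described here are the transcriptional coactivators Yap1 and Wwtr1 (the gene of TAZ), the DNA-binding partners Tead1, Tead2, Tead3 and Tead4, the kinases Lats1 and Lats2, and Amotl2 and Ankrd1, which are known targets of the pathway. They were chosen by gene name from the deposited table of gene expression, which held all 10 of them among 54532 genes, and all 10 passed the filter on low values that left 20448 genes to be tested. Expression was measured by RNA sequencing of whole lung at P30 in 5 mice with increased pulmonary flow (IPF) and 5 Sham mice. All 10 mice carried the wild-type genotype on the C57BL/6J strain and were operated on at P7. In the IPF group the abdominal aorta was punctured into the inferior vena cava, which made a fistula that sends more blood through the lungs, and in the Sham group the vessels were exposed but not punctured. Levels are FPKM, the fragments counted on a gene scaled to its length and to the size of the library, so levels of different genes can be set side by side.

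The Hippo pathway is a kinase cascade that links cell contact, cell shape and mechanical force to gene expression. Its kinases MST1 and MST2 activate LATS1 and LATS2, which phosphorylate YAP and TAZ and so hold them in the cytoplasm or send them to degradation. YAP and TAZ that enter the nucleus bind TEAD factors on DNA and switch on genes such as Ctgf, Cyr61 and Ankrd1. In the lung the pathway is known for its part in alveolar growth and repair and in the response of endothelial cells and fibroblasts to stretch and flow. Its control lies largely in phosphorylation and in the place of the proteins in the cell, neither of which mRNA levels measure.

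TEAD factors are known to bind a short sequence whose core is GGAATG, which reads CATTCC on the other strand. The 250 bases before the transcription start were taken from RefSeq promoters on GRCm38.p6, and both spellings were searched. Of the 10 genes, 8 had a window in the RefSeq table, and the core was found in 5 of these, namely Yap1, Wwtr1, Tead3, Amotl2 and Ankrd1. It was not found in the windows of Tead2, Lats1 and Lats2, and Tead1 and Tead4 had no window. By window, of which a gene can have several (Tead3 has 3), the core was found in 7 of 12. The windows of Wwtr1 overlap, and the same core was counted in each. Among all 32851 windows of this length 12.6% held the core. By gene, 14.4% of all 27025 genes with a window held it. Of the 19 other YAP and TAZ targets described later, 12 had a window and 4 held the core. None of F3, Foxf2, Igfbp3, Gadd45a and Tgfb2, which passed the expression test, was among the 4. Ctgf, Dock5, Fjx1 and Asap1, which also passed the expression test, had no window. The windows of Yap1, of the much used targets Ankrd1 and Cyr61 (Ccn1 in the table), and of Vgll3, a TEAD partner described later, are shown as examples of windows that hold the core, chosen with their matches known, and only Vgll3 of these 4 genes passed the expression test; capitals mark the core, and each runs 5′ to 3′ towards the start site.
Yap1, chr9:8004597-8004846, minus strand: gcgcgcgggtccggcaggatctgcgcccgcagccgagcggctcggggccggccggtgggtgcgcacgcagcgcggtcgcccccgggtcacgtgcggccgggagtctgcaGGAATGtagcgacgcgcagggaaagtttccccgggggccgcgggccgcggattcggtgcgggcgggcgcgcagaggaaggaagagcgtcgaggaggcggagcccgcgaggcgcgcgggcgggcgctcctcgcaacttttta
Ankrd1, chr19:36119845-36120094, minus strand: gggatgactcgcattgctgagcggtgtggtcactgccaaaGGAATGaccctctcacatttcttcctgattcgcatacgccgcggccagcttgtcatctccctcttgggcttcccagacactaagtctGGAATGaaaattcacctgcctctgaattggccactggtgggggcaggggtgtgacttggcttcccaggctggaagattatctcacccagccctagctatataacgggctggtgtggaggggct
Cyr61, chr3:145649986-145650235, minus strand: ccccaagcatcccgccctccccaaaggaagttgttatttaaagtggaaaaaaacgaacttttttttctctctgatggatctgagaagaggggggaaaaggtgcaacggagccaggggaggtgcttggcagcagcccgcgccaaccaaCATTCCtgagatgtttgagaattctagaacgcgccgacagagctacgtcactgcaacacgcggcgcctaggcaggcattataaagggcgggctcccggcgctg
Vgll3, chr16:65814939-65815188, plus strand: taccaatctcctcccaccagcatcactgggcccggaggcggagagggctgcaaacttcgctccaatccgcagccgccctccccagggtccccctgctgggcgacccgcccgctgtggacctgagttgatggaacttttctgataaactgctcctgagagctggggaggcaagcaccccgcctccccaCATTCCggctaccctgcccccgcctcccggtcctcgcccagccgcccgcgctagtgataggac
The Ankrd1 window held 2 cores, which began 210 and 123 bases before the start site. The single cores of Yap1, Cyr61 and Vgll3 began 141, 103 and 63 bases before it. A match of these letters is a description of the sequence and does not show that a TEAD factor bound there.

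The libraries held between 15483046 and 19026843 reads on genes, and each of the 10 genes was counted with 137 reads or more in every library. Averaged over the pairs of a library with the others, the Spearman correlation across 20448 genes, which are not independent of each other, was 0.957 for Sham replicate 1 and 0.963 to 0.968 for the rest. The sexes were not balanced: Xist was at 26.8 to 43.2 FPKM in the IPF group and at 0.0767 FPKM or less in the Sham group, and the 4 Y-linked genes checked had no read in any IPF mouse. Fistula and sex therefore cannot be told apart in any comparison below; all 10 genes lie on autosomes. All 6 circadian clock genes checked passed the test, with no overlap between groups, and IPF replicate 5 lay nearest to the Sham group (Npas2, 1.29 FPKM against 3.56 to 4.03 in the other IPF mice). Summed endothelial marker genes were at 1162 to 1302 FPKM in the IPF group and 983.6 to 1056 in the Sham group, although only Cldn5 of these 7 genes passed the test. Summed leukocyte genes were at 80.5 to 98.9 FPKM in IPF replicates 1 to 4, at 301.2 in IPF replicate 5 and at 32.8 to 94.6 in the Sham group (2 of 6 genes higher), and alveolar type 1 genes, the epithelium of gas exchange, at 1236 to 1637 against 1456 to 1625 FPKM (0 of 6 genes). Summed fibroblast genes were at 366.5 to 523.6 against 427.1 to 503.7 FPKM, with Pdgfra alone of 6 genes passing the test, as higher. Of the fitted log2 differences of these 6 genes, 2 were above 0 and 4 below (median -0.12). Of 6 immediate early genes, which respond within minutes to stress and handling, Junb and Ier2 were higher with no overlap between groups (log2 0.31 and 0.28), and Fos and Fosb had log2 differences of -0.52 and -0.77 that did not pass (limma adjusted p = 0.235 and 0.156). Whole lung mixes cell types, and more cells of a type cannot be told apart from more RNA per cell; the part of sex, clock phase, immediate early response and cell mixture in the results was not tested.

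Of the 10 genes, Tead4 alone passed the test between the groups, and it was lower in the IPF group. By limma on log2(FPKM + 0.1), with p-values adjusted by the Benjamini-Hochberg method over all genes tested and a threshold of 0.05, 0 of 10 genes were higher in the IPF group (3.71% of all genes tested) and 1 was lower (2.14% of all genes tested). At an unadjusted p under 0.05 the numbers were 1 higher, Yap1 (11.2% of all genes tested), and 2 lower, Tead4 and Ankrd1 (8.3% of all genes tested). Limma voom on the recovered reads also gave 0 higher and 1 lower at the adjusted threshold. The median fitted difference of the 10 genes was -0.10 on the log2 scale, with 4 above 0 and 6 below, and that of all genes tested was 0.00. In absolute size it was 0.14 for the 10 genes and 0.17 for all genes tested. The groups did not overlap for 1 of the 10 genes (7.29% of all genes tested), with 0 higher in the IPF group (4.52%) and 1 lower (2.77%). The p-values set the difference between groups against the spread between these mice.

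**Figure D1:**
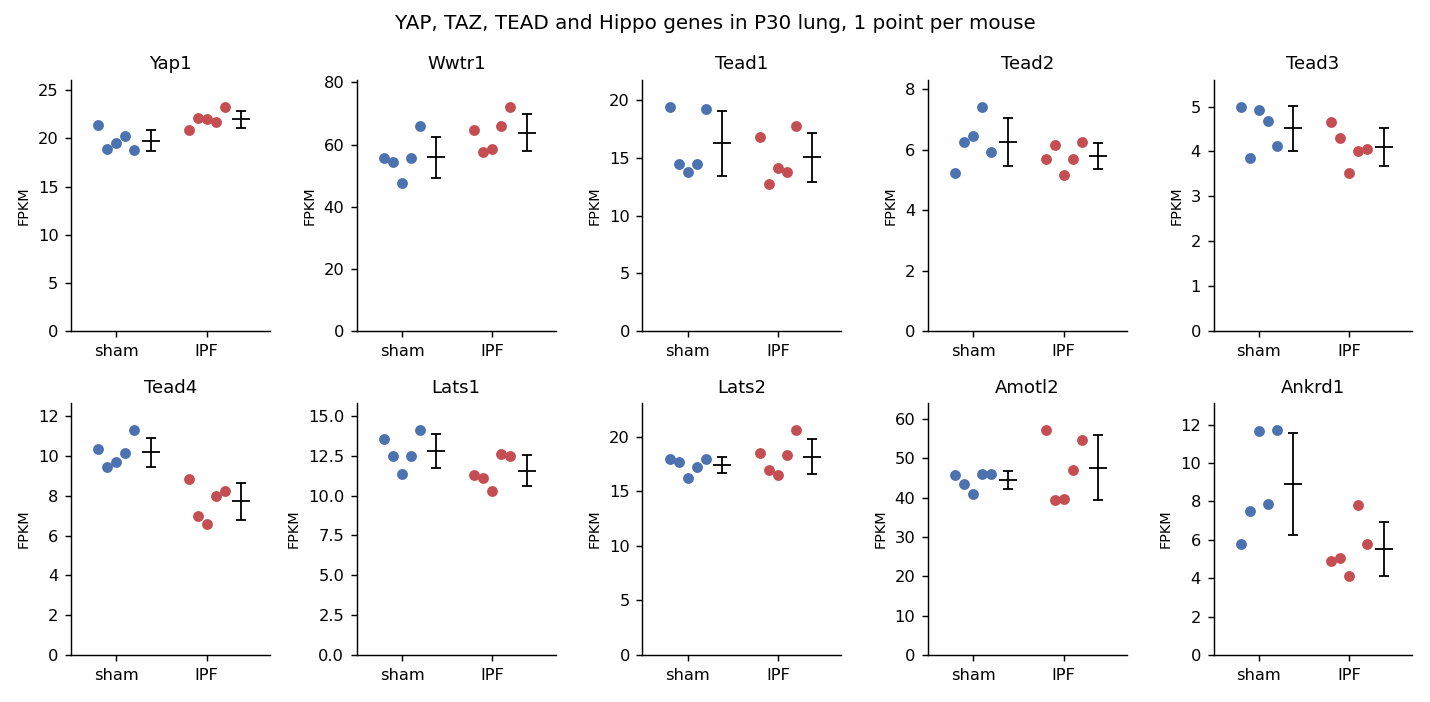
FPKM of the 10 genes in each mouse (y axis, from 0), with Sham in blue and IPF in red; points are mice and bars are the mean and SD of 5 mice. The Tead4 groups do not overlap (6.60 to 8.87 against 9.45 to 11.3 FPKM), while every other gene has at least 1 IPF mouse within the Sham range or mice on both sides of it.

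YAP and TAZ are the coactivators that carry the signal to DNA. Yap1 (ENSMUSG00000053110, chromosome 9 of GRCm38, 7931999 to 8004596) was at 20.8, 22.1, 22.0, 21.7 and 23.3 FPKM in IPF replicates 1 to 5 and at 21.4, 18.9, 19.5, 20.2 and 18.8 FPKM in Sham replicates 1 to 5. Of the IPF mice, 4 of 5 lay above all Sham mice, and IPF replicate 1 lay below Sham replicate 1. The means were 22.0 ± 0.883 and 19.7 ± 1.07 FPKM (SD, n = 5 each), a log2 difference of 0.15 (95% interval 0.04 to 0.27) that did not pass the adjusted test (limma adjusted p = 0.127). Taken alone, the gene gave p = 0.0159 in an exact permutation test (two-sided, smallest possible p 0.00794).

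Wwtr1 (ENSMUSG00000027803, chromosome 3, 57455649 to 57575910) had the highest level of the 10 genes in both groups. It was at 64.6, 57.5, 58.6, 66.1 and 72.2 FPKM in the IPF mice and at 55.7, 54.4, 47.7, 55.6 and 66.1 FPKM in the Sham mice. The groups overlapped, and only IPF replicate 5 lay above all Sham mice. The log2 difference was 0.19 (95% interval -0.01 to 0.39, limma adjusted p = 0.271). TAZ mRNA exceeded YAP mRNA in every lung, with a Wwtr1 to Yap1 ratio of 2.60 to 3.10 in the IPF group and 2.45 to 3.52 in the Sham group.

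TEAD factors bring YAP and TAZ to DNA, and all 4 were detected. Tead4 (ENSMUSG00000030353, chromosome 6, 128224288 to 128300823) was at 8.87, 6.99, 6.60, 7.99 and 8.26 FPKM in the IPF mice and at 10.4, 9.45, 9.69, 10.1 and 11.3 FPKM in the Sham mice. All 5 IPF mice lay below all 5 Sham mice. The mean was 7.74 ± 0.932 against 10.2 ± 0.716 FPKM (SD, n = 5 each), and Tead4 fell by 0.40 on the log2 scale (standard error, SE, 0.09, 95% interval -0.59 to -0.21, limma adjusted p = 0.0217), with p = 0.00794 in the exact permutation test. These values rest on 419 to 620 reads per library. The call was lost without IPF replicate 2 (-0.36, limma adjusted p = 0.0589), without Sham replicate 5 (-0.36, limma adjusted p = 0.0515), and without IPF replicate 4 and Sham replicate 3 together (-0.43, limma adjusted p = 0.0859).

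Tead1 (ENSMUSG00000055320, chromosome 7, 112679318 to 112906807), the most abundant TEAD, was at 16.8, 12.7, 14.1, 13.8 and 17.8 FPKM in the IPF mice and at 19.4, 14.4, 13.8, 14.5 and 19.3 FPKM in the Sham mice. In each group it was high in replicates 1 and 5 and lower in the other 3 mice, so its spread within a group exceeded the difference between the means (log2 -0.11, 95% interval -0.39 to 0.17, limma adjusted p = 0.688). Tead2 (ENSMUSG00000030796, chromosome 7, 45215753 to 45233644) was at 5.18 to 6.24 FPKM in the IPF group and 5.22 to 7.42 FPKM in the Sham group (log2 -0.10, 95% interval -0.31 to 0.10, limma adjusted p = 0.605). It overlaps Cd37 on the opposite strand, Yap1, Wwtr1, Tead1, Tead4 and Lats2 overlap predicted or non-coding genes of either strand, and no source used here states that strand was used in counting. Tead3 (ENSMUSG00000002249, chromosome 17, 28331671 to 28350817), at 3.51 to 4.65 against 3.86 to 5.00 FPKM, had the lowest mean of the 10 genes in both groups (log2 -0.14, 95% interval -0.35 to 0.08, limma adjusted p = 0.492). The 4 fitted TEAD differences were all below 0, but only that of Tead4 passed the test.

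The make-up of the TEAD pool was described from the same values, without a test. Tead4 made up 22.5 to 25.4% of the summed TEAD FPKM in the IPF mice and 25.9 to 27.8% in the Sham mice, so that all 5 IPF mice lay below all Sham mice. The shares of Tead1 (42.2 to 48.9% against 39.4 to 48.6%), Tead2 (15.8 to 20.4% against 13.0 to 20.2%) and Tead3 (11.1 to 14.2% against 10.2 to 14.1%) overlapped. The summed FPKM of Yap1 and Wwtr1 over that of the 4 TEAD genes was 2.37 to 2.79 in the IPF mice (mean 2.63 ± 0.162) and 1.93 to 2.16 in the Sham mice (mean 2.03 ± 0.102; SD, n = 5 each). Every lung held more coactivator mRNA than TEAD mRNA, and the ratio, formed with the results of its genes known, was higher in all IPF mice than in any Sham mouse. The summed FPKM itself overlapped between groups for Yap1 and Wwtr1 (79.6 to 95.5 against 67.2 to 85.0), for the 4 TEAD genes (29.4 to 36.3 against 34.0 to 40.6) and for Lats1 and Lats2 (26.7 to 33.1 against 27.6 to 32.0).

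**Figure D2:**
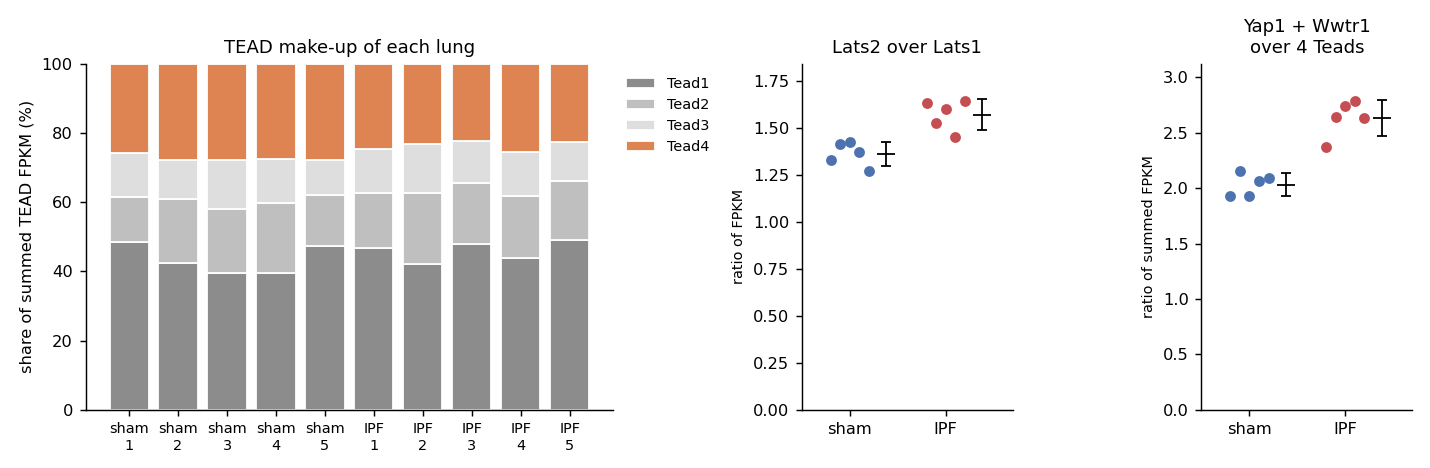
Left, the share of each TEAD gene in the summed TEAD FPKM of each mouse (y axis, %); middle, the Lats2 to Lats1 ratio of FPKM; right, the ratio of Yap1 plus Wwtr1 to the 4 TEAD genes, with 1 point per mouse and bars for the mean and SD of 5 mice. Both ratios, formed with the results of their genes known and not tested, are higher in all 5 IPF mice than in all 5 Sham mice.

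LATS1 and LATS2 are the kinases that phosphorylate YAP and TAZ, and neither mRNA passed the test. Lats1 (ENSMUSG00000040021, chromosome 10, 7681214 to 7716460) was at 11.3, 11.1, 10.3, 12.6 and 12.5 FPKM in the IPF mice and at 13.6, 12.5, 11.4, 12.5 and 14.1 FPKM in the Sham mice (log2 -0.15, 95% interval -0.31 to 0.02, limma adjusted p = 0.332). Lats2 (ENSMUSG00000021959, chromosome 14, 57689662 to 57758388), which is itself induced by YAP, was at 18.5, 17.0, 16.4, 18.3 and 20.6 FPKM in the IPF mice and at 18.0, 17.7, 16.2, 17.2 and 17.9 FPKM in the Sham mice (log2 0.06, 95% interval -0.09 to 0.20, limma adjusted p = 0.680). Both genes overlapped between groups, with 3 of 5 IPF mice below all Sham mice for Lats1 and 3 of 5 above them for Lats2. Set against each other in the same lung, the Lats2 to Lats1 ratio was 1.63, 1.53, 1.60, 1.45 and 1.64 in the IPF mice and 1.33, 1.42, 1.42, 1.37 and 1.27 in the Sham mice. Lats2 mRNA exceeded Lats1 mRNA in all 10 mice, and the ratio was higher in all 5 IPF mice than in any Sham mouse, which was not tested because the ratio was formed with these results known.

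Amotl2 and Ankrd1 are genes that YAP and TAZ switch on, and Amotl2 protein in turn holds YAP at cell junctions. Amotl2 (ENSMUSG00000032531, chromosome 9, 102716672 to 102733418) was at 57.1, 39.5, 39.6, 47.1 and 54.8 FPKM in the IPF mice and at 45.7, 43.4, 40.8, 46.1 and 46.0 FPKM in the Sham mice. The IPF mice lay on both sides of the Sham group, 3 above and 2 below all Sham mice, with a coefficient of variation of 17.4% against 5.11%. The log2 difference was 0.08 (95% interval -0.15 to 0.32, limma adjusted p = 0.721).

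Ankrd1 (ENSMUSG00000024803, chromosome 19, 36111965 to 36119844) encodes a protein best known from stressed heart muscle. It was at 4.89, 5.03, 4.11, 7.80 and 5.80 FPKM in the IPF mice and at 5.77, 7.52, 11.6, 7.86 and 11.7 FPKM in the Sham mice. Of the IPF mice, 3 of 5 lay below all Sham mice, and replicates 4 and 5 lay within the Sham range. The log2 difference of -0.66 (SE 0.21, 95% interval -1.13 to -0.19) was the largest in size of the 10 genes but did not pass the adjusted test (limma adjusted p = 0.105, with p = 0.0397 in the exact permutation test), and it rests on 137 to 330 reads per library. Without Sham replicate 1 it was -0.80 and passed (limma adjusted p = 0.0471), and over all alternatives the adjusted p was 0.0471 to 0.214.

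Because Ankrd1 is a heart muscle gene, its level was set beside 11 heart muscle marker genes, such as those of the cardiac sarcomere, in the same libraries. Their summed FPKM was 18.3, 29.1, 56.2, 174.7 and 24.3 in the IPF mice and 36.4, 31.5, 156.7, 38.9 and 27.6 in the Sham mice. IPF replicate 4 and Sham replicate 3 stood above the other libraries, and they held the highest Ankrd1 of the IPF group and the second highest of the Sham group. Sham replicate 5, with the highest Ankrd1 of all, had the lowest heart muscle sum of the Sham group. Without IPF replicate 4 and Sham replicate 3, the log2 difference of Ankrd1 was -0.68 (limma adjusted p = 0.129).

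**Figure D3:**
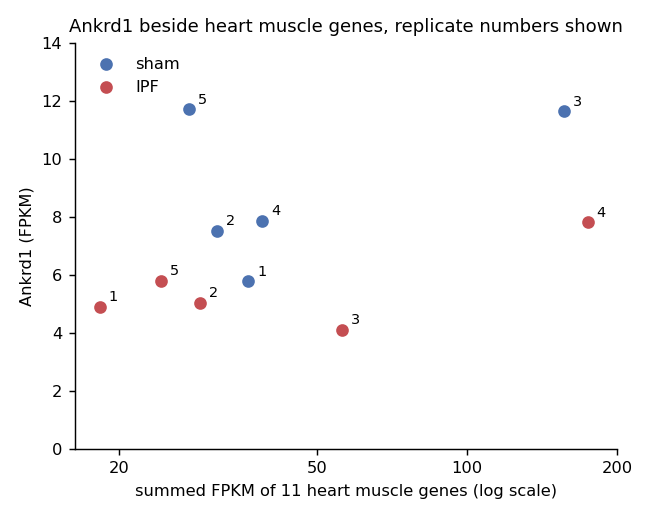
Ankrd1 FPKM of each mouse (y axis, from 0) against the summed FPKM of 11 heart muscle genes (x axis, log scale), with replicate numbers, Sham in blue and IPF in red. IPF replicate 4 (174.7) and Sham replicate 3 (156.7) lie far to the right, while Sham replicate 5 has the highest Ankrd1 at a heart muscle sum of 27.6.

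In mean level, both groups had the order Wwtr1, Amotl2, Yap1, Lats2, Tead1, Lats1 and Tead4 from the highest down. Ranges were compared only between neighbours in this order. Those of Lats2 and Tead1 overlapped in both groups, and those of Tead1 and Lats1 in the Sham group. Of the last 3 genes, the IPF group had Tead2 above Ankrd1 and Tead3, and the Sham group had Ankrd1 above Tead2 and Tead3. Among neighbours, Ankrd1 and Tead2 overlapped in both groups, as did Ankrd1 and Tead3 in the IPF group and Tead4 and Ankrd1 in the Sham group. The spread between mice was smallest for Yap1 among the IPF mice (coefficient of variation 4.02%) and largest for Ankrd1 (25.5% in the IPF group and 29.8% in the Sham group).

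The variation was partly shared by libraries. IPF replicate 5 was the highest of its group for 5 of the 10 genes and above the group mean for 9, and IPF replicate 3 was the lowest for 6. In the Sham group, replicates 1 and 5 were each the highest for 4 genes and replicate 3 was the lowest for 5. Over the 10 mice, with each group centred on its own mean and scaled to unit SD, the genes nearest in profile to Yap1 among 13444 genes with a mean of at least 1 FPKM were Mtus1 (root mean square difference 0.371), Ttc13 (0.373) and Cpsf7 (0.389), where the median over all genes was 1.43. Centring removed the difference between groups from this measure. The fitted log2 differences of Mtus1, Ttc13 and Cpsf7 were -0.21, -0.21 and -0.13, against 0.15 for Yap1, and none passed the test. The other 9 genes described here lay between 1.18 (Tead3) and 1.68 (Ankrd1), so none was close to Yap1 by this measure.

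The wider pathway was followed in 52 other genes, listed with earlier results of these data known, of which 49 passed the filter. Of these, 3 were higher in the IPF group (Vgll3, Map4k3 and Map4k4) and 1 was lower (Fjx1), in all 8.16% against 5.85% of all genes tested. Their median log2 difference was -0.04. Of the kinase core beside LATS, 0 of 7 genes (Stk3, Stk4, Sav1, Mob1a, Mob1b, Stk38 and Stk38l) passed by limma, by limma voom or at an unadjusted p under 0.05, and their log2 differences ran from -0.14 to 0.15. Stk4, the gene of MST1, was at 28.2 FPKM in the IPF group and 25.4 in the Sham group (limma adjusted p = 0.484), its scaffold Sav1 at 16.2 and 15.4 (limma adjusted p = 0.795), and Mob1a, which activates LATS, at 55.7 and 52.3 (limma adjusted p = 0.422).

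Of 25 listed regulators, some upstream of LATS and some acting on YAP itself, 2 passed (8.0% against 5.85% of all genes tested), a share near the background. They were Map4k3 and Map4k4, kinases known to activate LATS in parallel to MST. Map4k3 (ENSMUSG00000024242, chromosome 17, 80580512 to 80728093) was at 41.6 to 46.1 FPKM in the IPF mice and at 33.9 to 38.9 in the Sham mice, a rise of 0.27 on the log2 scale (95% interval 0.15 to 0.39, limma adjusted p = 0.0173). Map4k4 (ENSMUSG00000026074, chromosome 1, 39900913 to 40026310) was at 26.6 to 28.9 against 22.8 to 25.0 FPKM, a rise of 0.22 (95% interval 0.12 to 0.33, limma adjusted p = 0.0178). Neither gene overlapped between the groups. The listed MAP4K relatives Map4k2, Map4k5, Mink1 and Tnik, named after their values were seen, did not pass, with log2 differences of -0.08, -0.02, -0.07 and -0.18. Of these 25 regulators, the most abundant was Ywhaz, a 14-3-3 protein that holds phosphorylated YAP in the cytoplasm (123 against 116 FPKM, limma adjusted p = 0.536). Next came Wwc1, the gene of KIBRA (49.5 against 49.2, limma adjusted p = 0.987), and Csnk1d, a casein kinase that marks YAP for degradation (42.2 against 44.7, limma adjusted p = 0.351). Map4k3 lost its call in 3 of 21 alternatives and Map4k4 in 5 of 21, the latter also without Sham replicate 3 (limma adjusted p = 0.0525). Without IPF replicate 4 the number of higher genes in the wider pathway was 1 instead of 3, with Vgll3 alone passing.

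Among cadherin and polarity genes, 1 of 15 passed (6.67% against 5.85% of all genes tested), a share near the background. Fjx1, which encodes a Golgi-linked protein of the Fat and Dachsous cadherin branch and is also a YAP target, was at 5.58 ± 0.878 FPKM in the IPF group and 8.41 ± 1.56 FPKM in the Sham group (SD, n = 5 each), and it fell by 0.58 (log2, limma adjusted p = 0.0386). It lost the call in 11 of 21 alternatives, over all of which its log2 difference was -0.68 to -0.43. The most abundant of this list, Mpp5 (15.0 against 17.8 FPKM), Crb3 (15.3 against 14.9 FPKM) and Llgl1 (11.6 against 12.5 FPKM), all of them polarity genes, did not pass (limma adjusted p = 0.345, 0.868 and 0.358). The count of lower genes in the wider pathway depended on single libraries. It was 5 without IPF replicate 5 (Frmd6, Wwc2, Mpp5, Fjx1 and Ptpn21), and it was 0 when any 1 of IPF replicates 1 to 4 or of Sham replicates 1, 3 and 5 was left out. Frmd6, an upstream scaffold named, like Wwc2 and Ptpn21, after its values were seen, was at -0.36 with all mice (limma adjusted p = 0.155) and at -0.49 without IPF replicate 5 (limma adjusted p = 0.0057).

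Among the 49 wider pathway genes tested, the largest log2 difference in size was that of a TEAD cofactor. VGLL proteins bind TEAD factors at the surface that YAP and TAZ use. Vgll3 (ENSMUSG00000091243, chromosome 16, 65815257 to 65866368) was at 12.6, 11.2, 8.40, 12.4 and 11.0 FPKM in the IPF mice and at 5.47, 5.70, 4.44, 5.20 and 6.01 FPKM in the Sham mice. All 5 IPF mice lay above all Sham mice. The means were 11.1 ± 1.66 and 5.36 ± 0.597 FPKM (SD, n = 5 each), and Vgll3 rose by 1.03 on the log2 scale (SE 0.12, 95% interval 0.77 to 1.29, limma adjusted p = 0.000811). It passed the test in all 21 alternatives, with adjusted p up to 0.00852. Relative to the summed FPKM of the 4 TEAD genes, Vgll3 was at 0.286 to 0.393 in the IPF mice and at 0.127 to 0.168 in the Sham mice.

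Vgll4, which represses YAP-dependent transcription, was at 14.7 to 16.8 FPKM in the IPF mice and at 12.0 to 14.3 FPKM in the Sham mice. The groups did not overlap, but the log2 difference of 0.22 (95% interval 0.08 to 0.36) did not pass the adjusted test (limma adjusted p = 0.0801). Vgll1 had no read in any library, where a count of 0 allows up to 3 reads, and Vgll2 had at most 1 read in any library.

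**Figure D4:**
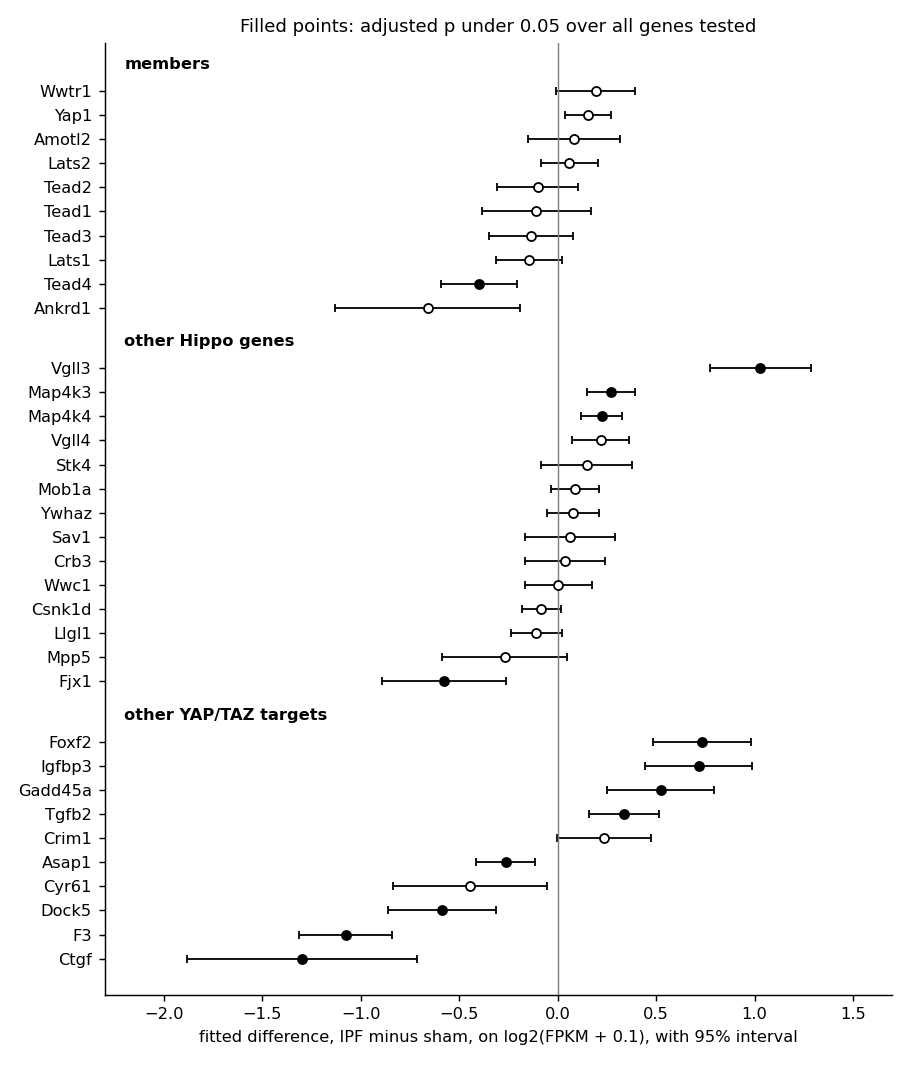
Fitted difference between IPF and Sham on log2(FPKM + 0.1) (x axis) with its 95% interval, for the 10 genes, the named wider pathway genes and the named targets; filled points passed the adjusted test. Of the 10 genes, the intervals of Yap1, Tead4 and Ankrd1 do not include 0, and the points of Vgll3, F3 and Ctgf lie beyond 1 in size, although the intervals of all 3 reach below 1.

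A further 19 known YAP and TAZ targets were described beside Amotl2 and Ankrd1, also from a list made with earlier results known. Of the 19, 10 did not pass the test, 4 were higher in the IPF group (Foxf2, Igfbp3, Gadd45a and Tgfb2) and 5 were lower (Ctgf, F3, Dock5, Fjx1 and Asap1), so that 47.4% passed against 5.85% of all genes tested. Of the 19, 2 also had a log2 change of more than 1 in size (1.14% of all genes tested). The median log2 difference was -0.21, with 6 fitted differences above 0 and 13 below. The number of higher targets was 2, Foxf2 and Igfbp3, when IPF replicate 2 or any 1 of Sham replicates 1 to 4 was left out, and the number of lower targets was 3, namely Ctgf, F3 and Dock5, when any 1 of IPF replicates 1 to 4 or of Sham replicates 1, 2, 3 and 5 was left out. Without IPF replicate 4 and Sham replicate 3 together, 2 were higher (Foxf2 and Igfbp3) and 1 was lower (F3). Many of these genes are also controlled by other pathways, and Fjx1 and Ptpn14 belong to the wider pathway list too.

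Ctgf and Cyr61, also named Ccn2 and Ccn1, encode secreted matrix proteins and are the targets most often read as a sign of YAP activity. Ctgf (ENSMUSG00000019997, chromosome 10, 24595442 to 24598683) was at 54.2, 29.5, 49.6, 41.3 and 101.8 FPKM in the IPF mice and at 124.1, 100.3, 133.2, 153.1 and 118.6 FPKM in the Sham mice. IPF replicate 5 lay among the Sham mice, and the 4 remaining IPF mice lay far below them. The means were 55.3 ± 27.7 and 125.8 ± 19.4 FPKM (SD, n = 5 each), and Ctgf fell by 1.30 on the log2 scale (SE 0.27, 95% interval -1.88 to -0.71, limma adjusted p = 0.0159), with p = 0.0159 in the exact permutation test. Without IPF replicate 5 the log2 difference was -1.55 (limma adjusted p = 0.000617), and without IPF replicate 4 and Sham replicate 3 together it was -1.20 and did not pass (limma adjusted p = 0.0999).

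Cyr61 (ENSMUSG00000028195, chromosome 3, 145646976 to 145649981) was at 54.9, 36.3, 42.0, 39.9 and 59.1 FPKM in the IPF mice and at 58.8, 53.6, 49.4, 90.9 and 65.3 FPKM in the Sham mice. IPF replicates 1 and 5 lay within the Sham range. The log2 difference was -0.45 (95% interval -0.83 to -0.06) and did not pass (limma adjusted p = 0.188). The Ctgf to Cyr61 ratio was 0.813 to 1.72 in the IPF mice and 1.68 to 2.70 in the Sham mice, with 4 of 5 IPF mice below all Sham mice.

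F3, the gene of tissue factor, which starts blood coagulation, was at 11.0, 11.3, 15.2, 10.2 and 13.8 FPKM in the IPF mice and at 27.7, 25.2, 28.1, 24.6 and 23.4 FPKM in the Sham mice. The groups lay far apart, and F3 fell by 1.08 on the log2 scale (SE 0.11, limma adjusted p = 0.000347), a call kept in all 21 alternatives. Dock5, an activator of the GTPase Rac, was at 2.34 to 3.38 against 3.76 to 5.01 FPKM and fell by 0.59 (limma adjusted p = 0.0184). Asap1, which acts on the GTPase Arf, was at 10.5 to 11.6 against 11.7 to 15.0 FPKM and fell by 0.26 (limma adjusted p = 0.0458), a call kept in 6 of 21 alternatives.

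On the other side, Foxf2, a transcription factor of lung mesenchyme, was at 32.3 to 49.9 FPKM in the IPF mice and 22.1 to 26.6 FPKM in the Sham mice and rose by 0.73 (limma adjusted p = 0.00401). Igfbp3, which binds insulin-like growth factors, was at 32.9 to 48.6 against 20.3 to 28.3 FPKM and rose by 0.72 (limma adjusted p = 0.00731). Both calls held in all 21 alternatives. Gadd45a, a stress-response gene, was at 6.66 to 10.2 against 4.88 to 6.17 FPKM (log2 0.52, limma adjusted p = 0.0313), and Tgfb2, a TGF-β ligand, was at 9.48 to 10.6 against 7.08 to 9.61 FPKM (log2 0.34, limma adjusted p = 0.0345), calls kept in 11 and 8 of 21 alternatives. Crim1, a membrane protein that binds growth factors and the third most abundant target listed, was at 43.1 to 61.4 against 39.8 to 49.8 FPKM and did not pass (log2 0.24, limma adjusted p = 0.261).

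**Figure D5:**
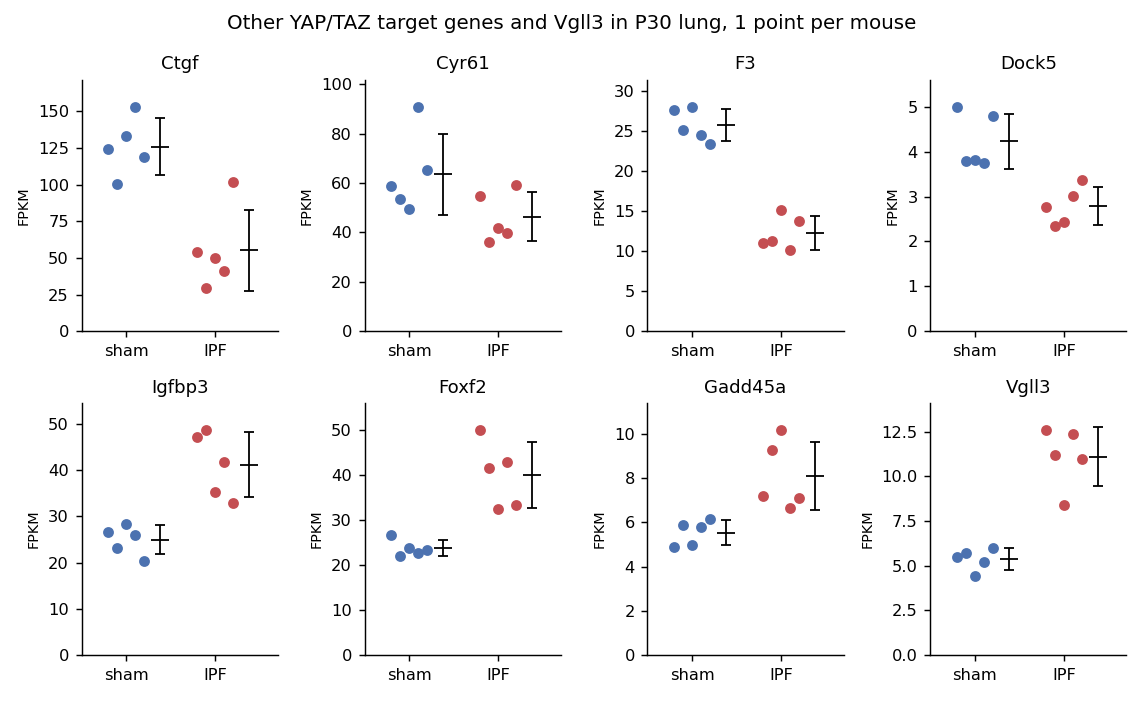
FPKM of Vgll3 and of 7 of the other targets in each mouse (y axis, from 0), with Sham in blue and IPF in red; points are mice and bars are the mean and SD of 5 mice. F3 and Dock5 are lower and Igfbp3, Foxf2, Gadd45a and Vgll3 higher in all 5 IPF mice than in all Sham mice, while IPF replicate 5 lies within the Sham range for Ctgf.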

How the data were processed

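RNA of snap-frozen whole lung was sequenced with paired ends on an Illumina NovaSeq. Per the methods, the authors used Fastp for trimming, HISAT2 for alignment and StringTie for quantification, and they deposited 1 FPKM value per gene and sample. The submitters' processing notes also name Bowtie 0.12.2, without a role. The methods name GRCm39, but the deposited positions are those of GRCm38: 94.8% of 20815 protein-coding genes lie within 1000 bases of their RefSeq GRCm38.p6 position.

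FPKM times gene length gave whole reads for 100% of values (tolerance 0.01 reads), from 15483046 to 19026843 per library; precision at low values is set by these reads, and they cover counting error only. Genes whose FPKM averaged at least 0.1 entered a limma 3.58.1 fit in R 4.3.3 (empirical Bayes with trend) on log2(FPKM + 0.1), with all 10 samples, no covariate and Benjamini-Hochberg adjustment; fold changes are on that scale and understate the change of low genes. The fit was tested on simulated data. DESeq2, which the authors used, was not run on the FPKM values, and limma voom on the recovered reads was the alternative on the count scale. Single genes were also compared by exact permutation of 5 of 10 samples (252 assignments, two-sided). Tables and figures were made in Python 3.11.15 with pandas 2.3.3, numpy 2.4.6 and matplotlib 3.10.9.

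The genes and lists were chosen with earlier results of these data known. The text names the 10 genes, the genes of the other lists that passed the test, the 3 most abundant of each list, Ctgf and Cyr61, the 3 genes nearest to Yap1 in profile, and others only with a remark. Alternatives were pseudocounts of 1 and 0.01, no filter or a minimum mean of 1 FPKM, quantile normalization, median-of-ratios scaling, limma voom on the recovered reads with TMM factors, no variance trend, the replicate number as a block, and leaving out each sample in turn. Leaving out IPF replicate 4 with Sham replicate 3 (high heart muscle genes), or IPF replicate 5 with Sham replicate 1 (apart from their groups), was chosen after seeing the data. Histology, flow cytometry and qRT-PCR were not analysed here.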

Additional observations from a re-analysis of the deposited data

Results flagged for a closer look

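In 3 of 68 groups of 5 samples checked, over 34 genes (the 10 genes, those of the wider pathway and target lists that passed the test or were among the 3 most abundant of their list, and Cyr61), 1 sample lay far from the rest by Dixon's test, which chance does in about 1 of 20 groups. Stk4, the gene of MST1, was at 30.9 FPKM in Sham replicate 5 and at 22.9 to 24.9 FPKM in the other Sham mice. Mpp5, a polarity gene, was at 21.8 FPKM in IPF replicate 5 and at 12.6 to 14.4 FPKM in the other IPF mice. Crb3, its partner at tight junctions, was at 11.8 FPKM in Sham replicate 1 and at 15.0 to 16.2 FPKM in the other Sham mice. None of these 3 genes passed the test between the groups.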

How the results depend on the processing

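Over 21 alternatives, none of the 10 genes changed sign, and none was called higher. The number called lower was 0 to 2 with each sample omitted in turn (Tead4 at -0.45 to -0.34, Ankrd1 at -0.80 to -0.55), and 0 without IPF replicate 4 and Sham replicate 3, where Tead4 was at -0.43 (limma adjusted p = 0.0859). Without IPF replicate 5 and Sham replicate 1, Ankrd1 was at -0.83 (limma adjusted p = 0.0520). Of the wider pathway, 1 to 3 genes were higher and 0 to 5 lower when each sample was left out; the number higher was 1 under quantile normalization and 1 without IPF replicate 4 and Sham replicate 3, and the number lower was 0 with no filter, 2 under quantile normalization, 3 by limma voom, 0 without IPF replicate 4 and Sham replicate 3, and 4 without IPF replicate 5 and Sham replicate 1. Of the other targets, 2 to 4 were higher and 3 to 6 lower when each sample was left out; 2 were higher with no filter, with no variance trend, and without either added pair of samples, and 3 were lower with no filter, 3 with no variance trend and 1 without IPF replicate 4 and Sham replicate 3. The cause of these changes was not tested. With fewer samples or no filter, fewer residual degrees of freedom or more genes enter the adjustment.

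With the replicate number as a block, Tead4 was at -0.40 (limma adjusted p = 0.0209), 2 wider pathway genes were lower and 2 other targets were higher. Deviations of same-numbered samples from their group means correlated at -0.0415 to 0.166, and in 2 of 5 numbers the samples correlated best with their own. These values do not settle whether the numbers pair the samples. At this depth Ankrd1, with 137 to 330 reads, is the least precisely counted of the 10 genes.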
